A study of Mus musculus with 84 samples.

Results

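Transcripts of 10 genes for receptors that quieten sensory neurons were followed in single vagal neurons of the mouse that innervate the airways. The genes are those of the GABA-B receptor (Gabbr1 and Gabbr2), the cannabinoid receptor Cnr1, the opioid receptors Oprm1, Oprd1, Oprk1 and Oprl1, the somatostatin receptor Sstr2 and the noradrenaline receptors Adra2a and Adra2c. They were chosen by name from the 50686 genes of the count table. The series holds 84 neurons of C57BL/6 mice, each labelled by 2% DiI, a lipophilic dye carried back from the airways to the cell body. All were picked singly from vagal sensory ganglia and had their mRNA amplified, and they form 1 group with no treatment. The labels name no animal, age or sex, so the neurons are not independent replicates of anything, no p-value was computed, and each interval covers counting error only.

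These receptors act through the Gi/o class of G proteins. The alpha subunit lowers cyclic AMP by inhibiting adenylyl cyclase, and the freed beta-gamma subunits close presynaptic calcium channels and open inwardly rectifying potassium channels of the GIRK family. On the central and peripheral ends of vagal afferents such receptors reduce transmitter release, and drugs at the GABA-B and opioid receptors are known to suppress cough. Trpv1, the capsaicin-gated channel of irritant-sensing neurons, and Prdm12, a transcription factor of neural crest-derived sensory neurons such as those of the jugular ganglion, are set beside the receptors below.

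Of the 84 neurons, 72 had 5000000 or more counts (6732279 to 20668832) and were kept. A transcript was called detected at 10 CPM (reads per 1000000 counted in that neuron), which is 67.3 counts in the shallowest kept neuron. The number of genes detected differed widely between kept neurons, from 841 to 8870 with a median of 5855.5. For that reason values are also given for the 38 neurons with 5000 or more genes, called gene-rich below, and the other 34. All 72 carried at least 50% of 10 pan-neuronal markers, whose summed level ran from 492 to 30004 CPM. The summed level of 7 satellite glia markers ran from 9.01 to 56618 CPM. That of 6 Schwann cell markers ran from 1.96 to 12524 CPM, with 5 of the 6 detected in some neuron, and that of 5 fibroblast markers from 0 to 876 CPM, with all 5 detected. Of 5 endothelial markers 3 were detected (Flt1 in 11 neurons, Cldn5 in 3 and Kdr in 2; summed level 0 to 201 CPM), and Pecam1 and Cdh5 in 0. Of 6 leukocyte markers 4 were detected, each in 1 to 4 neurons (summed level 0 to 216.2 CPM), and the lymphocyte markers Cd3e and Cd79a in 0. The part of these cells in the results was not tested.

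The receptors fell into a common set of 3 and a rare set of 7. Gabbr1, the GABA-binding subunit, was detected in 58 of 72 neurons (80.6%, exact Clopper-Pearson 95% interval 69.5 to 88.9%). Gabbr2, the subunit that couples the pair to the G protein, was detected in 50 (69.4%, 57.5 to 79.8%), and Cnr1, the main cannabinoid receptor of neurons, in 44 (61.1%, 48.9 to 72.4%). Each of the other receptors reached 10 CPM in 9 neurons or fewer.

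In the rare set, Adra2a was detected in 9 neurons (12.5%, 5.88 to 22.4%) and Oprk1, the kappa receptor for dynorphin, in 8 (11.1%, 4.92 to 20.7%). Oprl1, the receptor for nociceptin, and Adra2c were each detected in 7 (9.72%, 3.999 to 19.01%). Oprm1, the mu receptor that morphine acts on, was detected in 5 (6.94%, 2.29 to 15.5%) and Sstr2 in 4 (5.56%, 1.53 to 13.6%). The intervals of these 6 genes overlap, so their order is not resolved by 72 neurons. Oprd1, the delta receptor for enkephalins, was detected in 0 of 72 neurons, which by the limit of 3 counts over the total allows a share of up to 4.17% (4.99% by the exact interval), and its highest value was 1.89 CPM, with 1 count or more in 6 neurons.

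**Figure D1:**
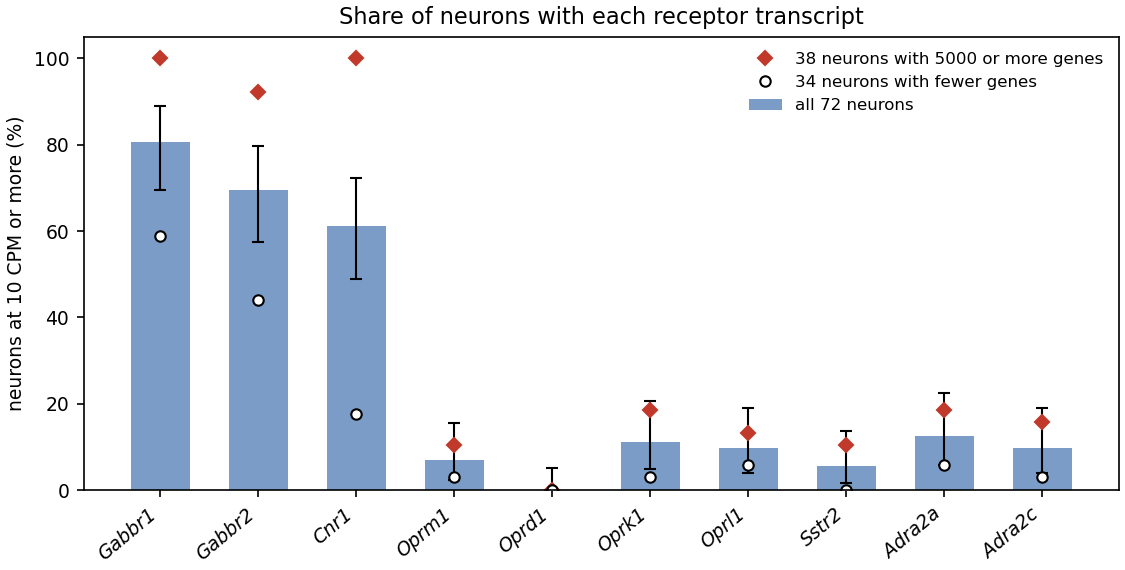
Bars give the percentage of the 72 kept neurons with each receptor transcript at 10 CPM or more, with exact 95% binomial intervals (counting error only). Diamonds and open circles give the share in the 38 gene-rich and the 34 other neurons; Cnr1 was found in 38 of 38 and 6 of 34, and Oprd1 in none.

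The shares moved with the number of genes detected in a neuron. In gene-rich neurons Gabbr1 and Cnr1 were found in 38 of 38 and Gabbr2 in 35 of 38. In the other neurons Gabbr1 was found in 20 of 34, Gabbr2 in 15 of 34 and Cnr1 in 6 of 34. Cnr1 was therefore the member whose share differed most between these 2 sets of neurons. The rare receptors were also mostly in gene-rich neurons, with Sstr2 in 4 and 0, Oprm1 in 4 and 1, Oprk1 in 7 and 1, Oprl1 in 5 and 2, Adra2a in 7 and 2, and Adra2c in 6 and 1. The 2 sets are defined by the number of genes at 10 CPM, so shares tend to be higher in gene-rich neurons by construction. No share over all genes was computed for this split, and nothing particular to the receptors is read from it. Whether the transcripts were missing from the other neurons or lost in amplification cannot be told apart. With every neuron thinned to 6732279 counts, Gabbr2 was detected in 49 neurons and each other member in the same number as before. At that depth 10 CPM is still 67.3 counts, so thinning could change few calls and cannot show whether depth mattered. Median total counts were 13639938.5 with Gabbr1 and 10196841 without it. They were 13639938.5 and 10267334 for Gabbr2, and 13976406.5 and 10552298 for Cnr1. The part of depth in these shares was not tested.

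Promoter sequence is shown for 3 members that span the range of frequencies: Gabbr1, the commonest, Oprd1, which was not detected, and Sstr2, a rare receptor whose neurons all carried Trpv1. Each is the 250 bases upstream of the annotated start, clear of annotated exons, from RefSeq (build GRCm38.p6) and written 5′ to 3′ on the strand of the gene. The windows are chr17:37045716-37045965 (plus strand) for Gabbr1, chr4:132144487-132144736 (minus strand) for Oprd1 and chr11:113619077-113619326 (plus strand) for Sstr2. Capitals mark exact matches, on either strand, to motifs searched for by their letters, and no matches overlap. The motifs are the GC box with the letters GGGCGG, the promoter element TATAAA, the cyclic AMP response element TGACGTCA, the element CCAAT and the homeodomain core TAATTA.
Gabbr1: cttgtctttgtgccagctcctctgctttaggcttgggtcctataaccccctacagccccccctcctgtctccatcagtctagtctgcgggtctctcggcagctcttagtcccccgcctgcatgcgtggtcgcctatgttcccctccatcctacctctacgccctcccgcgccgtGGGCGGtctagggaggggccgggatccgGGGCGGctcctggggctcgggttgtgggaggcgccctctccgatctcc
Oprd1: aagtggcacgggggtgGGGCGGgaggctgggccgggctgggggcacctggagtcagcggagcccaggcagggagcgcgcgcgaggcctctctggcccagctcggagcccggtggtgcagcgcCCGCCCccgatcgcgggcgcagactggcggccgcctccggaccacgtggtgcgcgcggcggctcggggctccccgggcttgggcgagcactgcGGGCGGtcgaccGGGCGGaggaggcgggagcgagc
Sstr2: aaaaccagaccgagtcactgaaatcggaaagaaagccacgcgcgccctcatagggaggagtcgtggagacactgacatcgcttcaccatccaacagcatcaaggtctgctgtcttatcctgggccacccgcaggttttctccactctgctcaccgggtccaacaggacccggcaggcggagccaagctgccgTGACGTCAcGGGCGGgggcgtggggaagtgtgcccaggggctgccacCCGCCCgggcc
All 3 windows hold more CG pairs than the median of 6 over 32851 promoters of this length, with 16 in Gabbr1, 34 in Oprd1 and 18 in Sstr2. In that order, 76.5%, 97% and 80.3% of promoters hold as many or fewer, so the counts of Gabbr1 and Sstr2 are not unusual. GGGCGG occurs 2 times in Gabbr1, 4 times in Oprd1 and 2 times in Sstr2, so the undetected gene holds the most, and 32.7% of all promoters hold at least 1. TGACGTCA occurs once, in Sstr2, and in 1.55% of all promoters. TATAAA (12.4% of promoters), CCAAT (33.8%) and TAATTA (4.84%) occur in none of the 3. A match is a string of letters in the window and says nothing about binding, and no chromatin data were used here. Entries were found for 9 of the 10 receptors.

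Gabbr1 (ENSMUSG00000024462, chromosome 17, 37045966 to 37075067, GENCODE M21 on GRCm38) was the most abundant member. Its level over the 72 neurons ran from 0.0975 to 3286 CPM (median 343 CPM), and over the gene-rich neurons from 114 to 1068 CPM (median 421 CPM). The highest value, 3286 CPM, came from neuron AM287, which had the fewest genes of all (841) and the highest satellite glia sum (56618 CPM). The lowest detecting neuron had 43.8 CPM and the highest of the rest 8.15 CPM, and all 72 neurons had at least 1 count of it.

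Gabbr2 (ENSMUSG00000039809, chromosome 4, 46662305 to 46991873) lay lower, from 0 to 321 CPM, and its median was 34.1 CPM over the 72 neurons and 50.6 CPM over the gene-rich ones. It was detected in 6 neurons at 10 to 20 CPM. Cnr1 (ENSMUSG00000044288, chromosome 4, 33924593 to 33948831) ran from 0 to 547 CPM, around a median of 80.9 CPM. Detecting neurons began at 19.8 CPM, the others ended at 6.45 CPM, and 94.4% of the neurons had at least 1 count. In the gene-rich neurons its median was 190 CPM, and it spanned 19.8 to 547 CPM.

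Levels of different genes are compared per kilobase of merged exons. On that scale the median level over detecting neurons was 50.8 CPM per kilobase for Gabbr1, 29.5 for Cnr1 and 7.76 for Gabbr2. For the rare receptors the medians were 12.6 CPM per kilobase for Sstr2, 11.9 for Adra2c, 10.5 for Adra2a and 8.10 for Oprl1. Those of Oprm1 (4.44) and Oprk1 (2.05) were the lowest. A median over detecting neurons cannot fall below the value that 10 CPM gives for the gene's length, so it says nothing of neurons under the threshold.

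**Figure D2:**
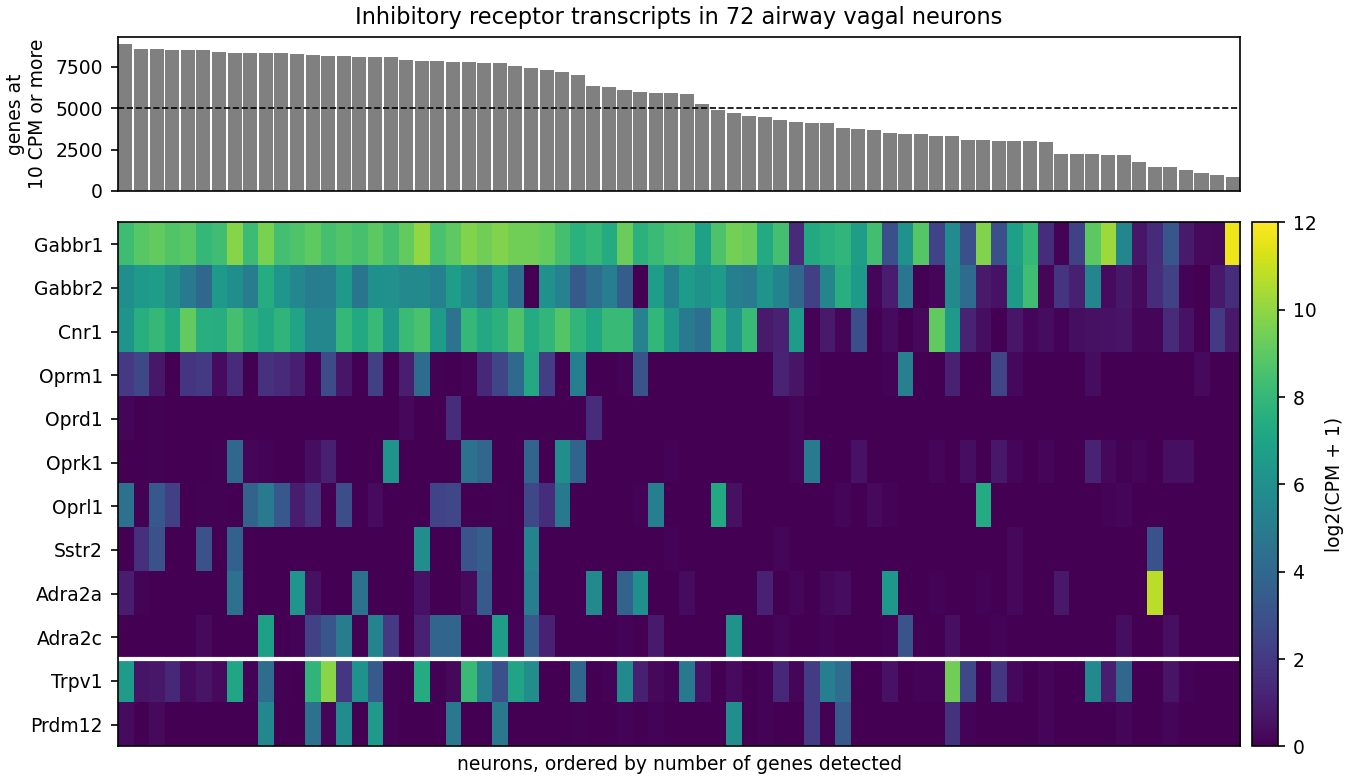
Each column is 1 of the 72 kept neurons, ordered by the number of genes at 10 CPM or more (upper bars, dashed line at 5000). Colour gives log2(CPM + 1) of each receptor, with Trpv1 and Prdm12 below the white line; Gabbr1, Gabbr2 and Cnr1 fill the left side, and the rare receptors appear as scattered neurons.

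A working GABA-B receptor is a pair of both subunits. Both transcripts were detected in 48 of 72 neurons (66.7%, 54.6 to 77.3%), Gabbr1 alone in 10, Gabbr2 alone in 2 and neither in 12. In gene-rich neurons both were found in 35 of 38 (92.1%, 78.6 to 98.3%). The Gabbr2-only neurons, AM010 and AM230, had 6.50 and 1.70 CPM of Gabbr1 and 3078 and 4165 genes, so neither was gene-rich.

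The subunits were not matched in level. In the 48 neurons with both, the ratio of Gabbr1 to Gabbr2, each per kilobase, had a median of 7.03 and ran from 0.685 to 48.6. Gabbr1 was the higher of the pair in 45 of these 48 neurons, and in 35 of 35 gene-rich ones, where the median ratio was 7.76. Across the 38 gene-rich neurons the levels of the subunits had a Spearman correlation of 0.177, a description over neurons that share 1 table and differ in depth and gene number.

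The 3 gene-rich neurons without Gabbr2 each carried a rare receptor. AM018 had 0 CPM of Gabbr2 among 20668832 counts with 670 CPM of Gabbr1, AM249 had 0 with 208 CPM of Gabbr1, and AM020 lay just under the threshold at 9.17 CPM. AM018 carried Oprm1, Oprk1, Sstr2 and Adra2a, AM020 carried Oprm1 and Oprk1, and AM249 carried Adra2a. These neurons were singled out after their values were seen.

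A median of 3 receptors was detected per neuron, with a highest number of 6 and with 9 neurons that had none. The median was 4 in gene-rich neurons, all of which had 3 or more, and 1 in the others. The 9 neurons with no receptor had 959 to 3041 genes. In all, 24 combinations were seen. The commonest was Gabbr1, Gabbr2 and Cnr1 with no other receptor (17 neurons), followed by no receptor (9), Gabbr1 with Gabbr2 (8), the common trio with Adra2c (6), Gabbr1 alone (5), and the trio with Adra2a or with Oprl1 (4 each).

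The common trio was present together in 39 of 72 neurons (54.2%, 42.004 to 65.98%). Splitting the neurons by 1 common receptor separated the others, but did so for much of the genome too. By a rule of 40 percentage points in the share of neurons, Gabbr1 neurons differed from the rest in Gabbr2 and Cnr1, where 42.1% of the 11350 genes tested (10 CPM or more in at least 5 kept neurons) passed the same rule. Gabbr2 neurons differed in Gabbr1 and Cnr1 against 37.6% of genes, and Cnr1 neurons in Gabbr2 alone against 51.1%. Shares this close to, or below, the background say nothing particular about the trio. Cnr1 neurons had a median of 7802.5 genes and the others 3026.5.

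At least 1 rare receptor was found in 30 neurons (41.7%, 30.2 to 53.9%), and 2 or more in 7 (9.72%), all of them gene-rich. An opioid receptor was found in 17 neurons (23.6%, 14.4 to 35.1%), and in 13 of 38 gene-rich ones (34.2%, 19.6 to 51.4%). More than 1 opioid receptor was found in 3 neurons: Oprm1 with Oprk1 in AM018 and AM020, and Oprk1 with Oprl1 in AM253. Oprm1, found in 5 neurons, and Oprl1, found in 7, shared 0 neurons, and these numbers are too small to show whether they avoid each other.

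Of the noradrenaline receptors, Adra2a was detected in 9 neurons and Adra2c in 7, and 0 of 72 neurons had both, which by the same 3 counts allows a share of up to 4.17%. AM018 came close, with 33.5 CPM of Adra2a and 9.53 CPM of Adra2c. Of the 4 Sstr2 neurons 3 also had Oprk1, 2 had Oprm1 and 2 had Adra2a. All 4 were gene-rich, and 23 of the 38 gene-rich neurons (60.5%, 43.4 to 75.96%) had a rare receptor. No background over other pairs of genes was computed, and nothing is read from these overlaps. AM018 and AM281 were the neurons with 6 receptors, and both carried Sstr2, Oprk1, Adra2a and Trpv1. Splits by Oprm1, Oprk1, Oprl1 or Adra2a neurons put 0 other members 40 points apart, where 5.89%, 8.36%, 3.42% and 1.01% of all genes tested were apart. The split by Adra2c put Cnr1 apart (7 of 7 against 37 of 65), where 17.1% of genes were, and 0 members among gene-rich neurons, where 5.17% were.

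Trpv1 was detected in 19 of 72 neurons (26.4%, 16.7 to 38.1%), 14 of them gene-rich. No member differed by 40 points between Trpv1 neurons and the other 53, a rule that 0.996% of all 11350 genes passed. Sstr2, found in 4 neurons, and Oprd1 were below the 5 neurons needed for that background. Each of the other 8 members was tested, and their median difference was 19.6 points, beside 12.4 over all genes. Trpv1 neurons had more genes detected (median 7541 against 4500), and among gene-rich neurons, where gene numbers were close (7832.5 against 7995.5), the median difference of the members was 0.893 points and that of all genes 0. There 0 members and 1.83% of all genes passed the rule.

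Among gene-rich neurons the common receptors were near universal with and without Trpv1. Gabbr1 was found in 14 of 14 and 24 of 24, Cnr1 in 14 of 14 and 24 of 24, and Gabbr2 in 12 of 14 and 23 of 24. In level, Gabbr1 ran from 200 to 1068 CPM (median 640 CPM) in the 14 Trpv1 neurons, and from 114 to 842 CPM (median 378 CPM) in the 24 others. Gabbr2 went the other way, with medians of 33.4 CPM (0 to 172) and 62.1 CPM (0 to 105.35). Medians of Cnr1 were 161 CPM (29.5 to 409) and 199 CPM (19.8 to 547), and for all 3 genes the groups overlapped over most of their range.

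**Figure D3:**
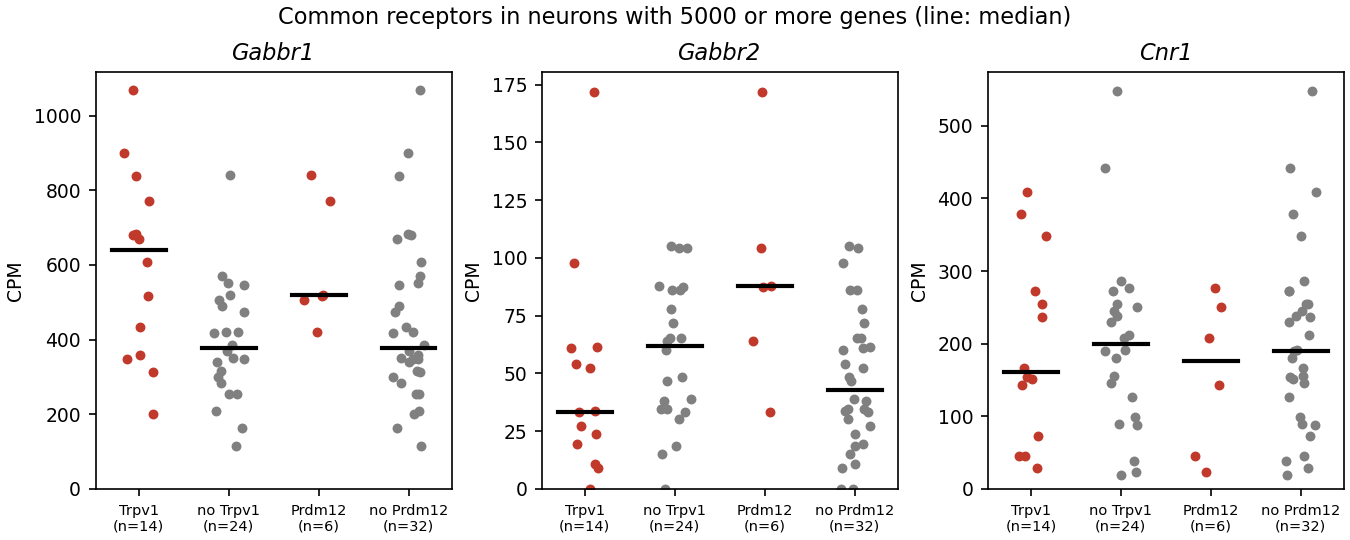
Each point is the CPM of a common receptor in 1 gene-rich neuron, split by detection of Trpv1 (14 and 24) and of Prdm12 (6 and 32), with lines at the medians. The Gabbr1 median is 640 CPM with Trpv1 and 378 CPM without it, and every pair of groups overlaps.

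Among the rare receptors, Sstr2 reached 10 CPM only in neurons with Trpv1. Its values were 58.6 CPM in AM210, 41.8 in AM018, 12.2 in AM281 and 11.4 in AM291, and these neurons had 165, 59.8, 137 and 36.5 CPM of Trpv1. The next values lay just under the threshold, with 7.41 CPM in AM257, a Trpv1 neuron at 269 CPM, and 7.05, 6.85 and 6.77 CPM in AM295, AM019 and AM059, where Trpv1 was below 1 CPM. Sstr2 was thus detected in 4 of 19 Trpv1 neurons (21.1%, 6.05 to 45.6%) and 0 of 53 others, and lower amounts also occurred without Trpv1.

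Oprm1 had nearly the same split, with 4 of 19 Trpv1 neurons (21.1%, 6.05 to 45.6%) and 1 of 53 others (1.89%, 0.0478 to 10.1%). It reached 149 CPM in AM018, 35.7 in AM020, 17.7 in AM210 and 16.1 in AM221, all with Trpv1, and 35.9 in AM299, which had 0 CPM of Trpv1. The neuron without Trpv1 was thus the second highest for Oprm1.

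Turned around, 4 of 4 Sstr2 neurons (100%, 39.8 to 100%) and 4 of 5 Oprm1 neurons (80%, 28.4 to 99.5%) carried Trpv1. A share of 80% or more was reached by 3.05% of the 1937 genes found in 4 to 9 neurons, and by 6.23% of such genes among gene-rich neurons, where Oprm1 reached 4 of 4. This rule was chosen after the values were seen. It was met by 2 of the 6 rare members: Oprk1 stood at 5 of 8 (62.5%, 24.5 to 91.5%), Adra2a at 4 of 9, Oprl1 at 2 of 7 and Adra2c at 1 of 7.

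These shares rest on few neurons and on the scale. When CPM was rescaled by trimmed mean of M-values (TMM), which lowered values in gene-rich neurons (scaling factors 1.24 to 2.17) and raised them in most others, Oprm1 reached 10 CPM in 3 neurons of which 1 carried Trpv1, and Sstr2 in 3 of which 2 did. Within the identifier blocks, Sstr2 was found in 1 of 3 Trpv1 neurons against 0 of 13 others (AM002 to AM023), 0 of 4 against 0 of 7 (AM059 to AM086) and 3 of 12 against 0 of 33 (AM210 to AM304). In the same order Oprm1 was found in 2 of 3 against 0 of 13, then in 0 of 4 against 0 of 7, then in 2 of 12 against 1 of 33. The satellite glia sum was 149 to 2589 CPM (median 1429) in the gene-rich Trpv1 neurons and 38.99 to 9793 CPM (median 473) in the others. All 7 of those markers were detected in at least 1 kept neuron, and their part in the split was not tested. The Sstr2 gene (chromosome 11, 113619342 to 113626028) lies in the span of the opposite-strand gene Slc39a11, with no shared exon bases, and the latter was detected in all 4 Sstr2 neurons and 35 neurons in all. Oprm1 (chromosome 10, 6758506 to 7038198) shares 96 of its 8037 exon bases with the opposite-strand gene Ipcef1, detected in 4 neurons, 2 of them with Oprm1. Because the strand setting of the counting is not given, reads there cannot be assigned to either strand.

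Oprk1 and Adra2a were found on both sides of the Trpv1 line, at different levels. In the 5 Oprk1 neurons with Trpv1 the gene ran from 13.6 to 21.9 CPM. In AM239, AM253 and AM072 it stood at 74.04, 60.7 and 31.1 CPM, so the groups did not overlap. Trpv1 was under the 10 CPM threshold in these neurons, with 3.41 CPM in AM072. Only 4 Oprk1 neurons lay below 20 CPM, all with Trpv1, and no neuron without a call exceeded 1.21 CPM.

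Adra2a had the same layout. With Trpv1 it stood at 33.5 CPM in AM018, 22.3 in AM281, 21.7 in AM271 and 12.9 in AM283. Without Trpv1 it stood at 50.9 CPM in AM246, 64.7 in AM249, 76.2 in AM300, 82.9 in AM023 and 1714 in AM295, again with no overlap. AM295 had only 1446 genes and no other receptor, and its Adra2a value was more than that of any other member in any neuron except Gabbr1 in AM287. With Trpv1 also called at 50 CPM, Adra2a was found at 50 CPM in 0 of 12 Trpv1 neurons and 5 of 60 others. Oprk1 was found in 0 of 12 and 2 of 60. These counts restate the values just listed and add no support. These level differences were noticed in the values, cover only the few detecting neurons and were not tested. How many other genes separate in this way was not computed, so nothing particular to Oprk1 or Adra2a is read from them.

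**Figure D4:**
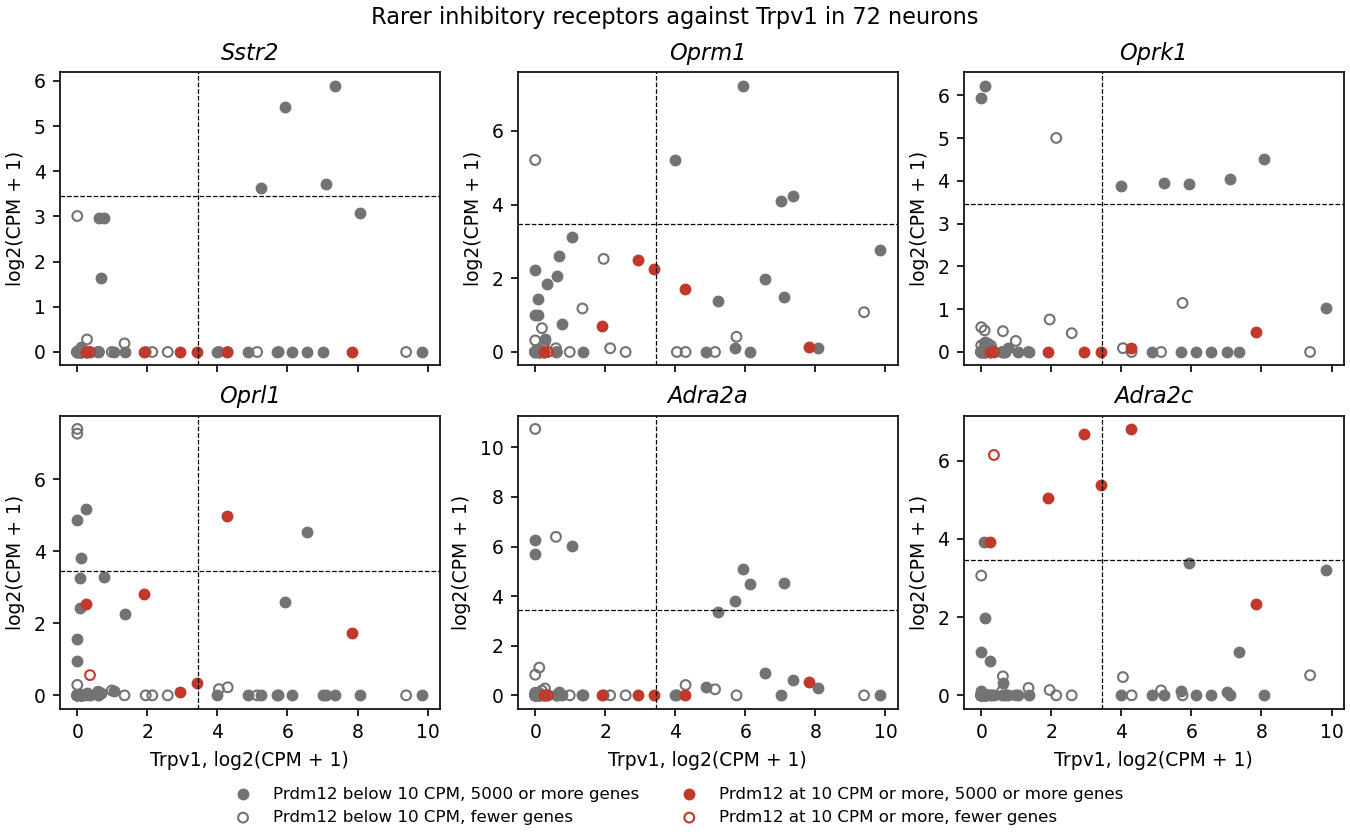
Each point is 1 of the 72 kept neurons, with log2(CPM + 1) of Trpv1 on the horizontal axis and of a rare receptor on the vertical axis, and dashed lines at 10 CPM. Filled points are gene-rich, and red points carry Prdm12; the 4 Sstr2 neurons lie right of the Trpv1 line, and 6 of the 7 Adra2c neurons are red.

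Oprl1 showed no lean towards Trpv1, with 2 of 19 Trpv1 neurons and 5 of 53 others. Its highest values were 168 CPM in AM302 and 153 CPM in AM282, both without Trpv1 and with 3075 and 4870 genes. The Trpv1 neurons AM237 and AM070 had 30.4 and 22.1 CPM, within the range of the others (12.99 to 168 CPM).

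Prdm12 was detected in 7 neurons, 6 of them gene-rich, and Adra2c followed it. Adra2c (ENSMUSG00000045318, chromosome 5, 35278319 to 35281763) reached 10 CPM in 6 of the 7 (85.7%, 42.1 to 99.6%) and in 1 of the 65 neurons without Prdm12 (1.54%, 0.0389 to 8.28%). It stood at 112 CPM in AM237, 102 in AM303, 69.9 in AM304, 40.96 in AM013, 32.3 in AM011 and 14.1 in AM228, all with Prdm12, and at 14.2 CPM in AM006, which had 0 CPM of Prdm12. The Prdm12 neuron without a call, AM296, had 4.03 CPM of Adra2c beside 227 CPM of Trpv1. Its 22.04 CPM of Prdm12 was the lowest of the 7. The 2 levels did not keep the same order, since AM013 had the highest Prdm12 (87.01 CPM) but less Adra2c than AM303 (27.04 CPM of Prdm12). AM086, just under the Prdm12 threshold at 9.13 CPM, had 0 CPM of Adra2c. Values just under the threshold, 9.53 CPM in AM018, 8.28 in AM021 and 7.36 in AM299, came from neurons with Prdm12 below 1 CPM.

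By the 40-point rule 2 members were apart between Prdm12 neurons and others, Adra2c by 84.2 points and Cnr1 by 43.1 points (7 of 7 against 37 of 65), where 19.2% of all genes were apart. With both genes called at 1 count or more, 14 of 22 Prdm12 neurons and 12 of 50 others had Adra2c, a difference of 39.6 points. At that setting 0.130% of all genes were 40 points apart. At 50 CPM 1 of 3 and 2 of 69 had it, a difference of 30.4 points, with Adra2c in only 3 neurons, under the 5 needed for the background. The difference was thus under the 40-point size at both thresholds. Adra2c ranked 20 among the 11350 genes for a higher share with Prdm12. The Prdm12 neurons had a median of 8091 genes against 4870 in the others. Among gene-rich neurons (medians 8107 and 7851.5) Cnr1 was in every neuron, and Adra2c alone of the members was apart, with 5 of 6 against 1 of 32, a difference of 80.2 points and rank 21, where 6.28% of all genes were apart. The satellite glia sum was 92.9 to 2418 CPM in the gene-rich Prdm12 neurons and 38.99 to 9793 CPM in the other gene-rich ones, and its part was not tested.

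Of the 7 Adra2c neurons, 6 carried Prdm12. A share of 80% or more was reached by 0.878% of the 1936 genes found in 4 to 9 neurons (1.19% among gene-rich neurons). This is the rule chosen after the values were seen, and the share restates the neurons counted above, so it adds no support. With TMM scaling Prdm12 was detected in 8 neurons, 5 of which had Adra2c, while 0 of the 64 others had it. Within identifier blocks 2 of 2 Prdm12 neurons and 1 of 14 others had it, and 4 of 5 and 0 of 40, while the remaining block had no Prdm12 neuron. Prdm12 shares 200 exon bases with the opposite-strand gene Gm13425, which was detected in all 7 Prdm12 neurons. The Adra2c gene has no such overlap and no 76-base stretch in common with another gene.

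For the other rare receptors the Prdm12 neurons were too few to show a difference. Oprm1, Oprk1, Sstr2 and Adra2a were found in 0 of the 7, which for each gene allows a share of up to 42.9% by 3 counts over the total, and Oprl1 in 1, AM237. Gabbr1 and Gabbr2 were in 7 of 7. In gene-rich neurons their medians were 519 CPM (420 to 842) with Prdm12 against 378 CPM (114 to 1068), and 87.8 CPM (33.1 to 172) against 42.8 CPM (0 to 105.35). For Cnr1 they were 176 CPM (22.8 to 276.7) against 190 CPM (19.8 to 547), and all 3 pairs of ranges overlapped.

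Transcripts of machinery that these receptors act through were also detected. As background, 11350 of the 50686 genes in the table were at 10 CPM in at least 5 kept neurons. Counts of detected genes in the lists below are descriptions only. All 5 genes for Gi/o alpha subunits were detected, Gnao1 in 72 of 72 neurons, Gnai2 in 67, Gnai1 in 55, Gnaz in 51 and Gnai3 in 48, and 0 of the 5 were 40 points apart by Trpv1 or by Prdm12 among gene-rich neurons. Of 5 beta subunits 4 were detected, Gnb1 in all 72, with 0 apart. Over all genes 1.83% were apart by Trpv1 and 6.28% by Prdm12, so nothing particular is read from these counts of 0. Of the GIRK channel genes, Kcnj3 was found in 25 neurons (34.7%, 23.9 to 46.9%) and Kcnj9 in 1, while Kcnj5 and Kcnj6, whose products usually pair with that of Kcnj3, were found in 0 of 72 (up to 4.17% by 3 counts, 4.99% by the exact interval).

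Of 10 genes for subunits of presynaptic calcium channels all were detected, with Cacnb3 in 55 and Cacnb4 in 53 neurons. Cacna1e, the R-type channel, was the member of that list apart by Trpv1, with 7 of 14 gene-rich Trpv1 neurons and 0 of 24 others. Of 8 adenylyl cyclases, the enzymes the receptors restrain, 6 were detected, Adcy2 in 40 and Adcy9 in 25 neurons. Here 2 of the 5 tested differed by Trpv1 in opposite directions: Adcy5 was found in 12 of 14 gene-rich Trpv1 neurons and 5 of 24 others, and Adcy9 in 4 of 14 and 18 of 24. By Prdm12 another 2 were higher, Adcy1 (5 of 6 against 8 of 32) and Adcy7 (5 of 6 against 4 of 32). The backgrounds for these counts are the 1.83% and 6.28% given above.

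Of 16 RGS genes, whose products speed the switching-off of G proteins, 14 were detected, with Rgs4 in 66 and Rgs17 in 62 neurons. All 7 receptor kinase and arrestin genes were detected, with Arrb1 in 55 and Arrb2 in 51. Neither list had a member apart by Trpv1 or Prdm12 among gene-rich neurons, with 12 and 7 genes tested. Over all genes 1.83% and 6.28% were apart, so nothing particular to these lists is read from it. Of 6 genes for proteins that bind the GABA-B receptor, 4 were detected: Kctd8, an auxiliary subunit, in 48 neurons and in 38 of 38 gene-rich ones, Pianp in 10, Kctd12 in 7 and Ajap1 in 2. Kctd16 and Kctd12b were detected in none, so Kctd8 was the common auxiliary subunit of this family.

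Most ligand genes were not detected, which also holds for much of the table (11350 of 50686 genes in at least 5 neurons), so nothing particular to ligands is read from it. Of 8, Sst (somatostatin) was detected in 8 neurons, Pomc in 3 and Penk in 1, at 2517 CPM, while Pdyn, Pnoc, Cort, Gad1 and Gad2 were detected in 0. All 6 genes of endocannabinoid metabolism and of the Cnr1-binding protein were detected, with Mgll, the enzyme that degrades the endocannabinoid 2-arachidonoylglycerol, in 48 neurons and Cnrip1 in 47. Of the 5 found in enough neurons to compare, 1 was apart by Prdm12, where 6.28% of all genes were: Dagla, which makes that lipid, in 5 of 6 gene-rich Prdm12 neurons and 4 of 32 others.

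Among 26 further Gi/o-coupled receptor genes, 14 were detected. Adora1, the adenosine receptor, was found in 53 neurons and Grm7, a glutamate receptor, in 38, shares near those of the common trio. Of the 10 found in enough neurons to compare, 1 was apart by Trpv1 among gene-rich neurons, where 1.83% of all genes were: Drd2, a dopamine receptor, in 8 of 14 Trpv1 neurons and 0 of 24 others. Over all kept neurons it was found in 8 of 19 and 5 of 53, so it also occurred in neurons with fewer genes and no Trpv1. By Prdm12, 3 of the 10 were apart among gene-rich neurons, where 6.28% of all genes were: the serotonin receptor Htr1b (6 of 6 against 1 of 32) and the glutamate receptors Grm4 (4 of 6 against 1 of 32) and Grm8 (6 of 6 against 9 of 32).

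**Figure D5:**
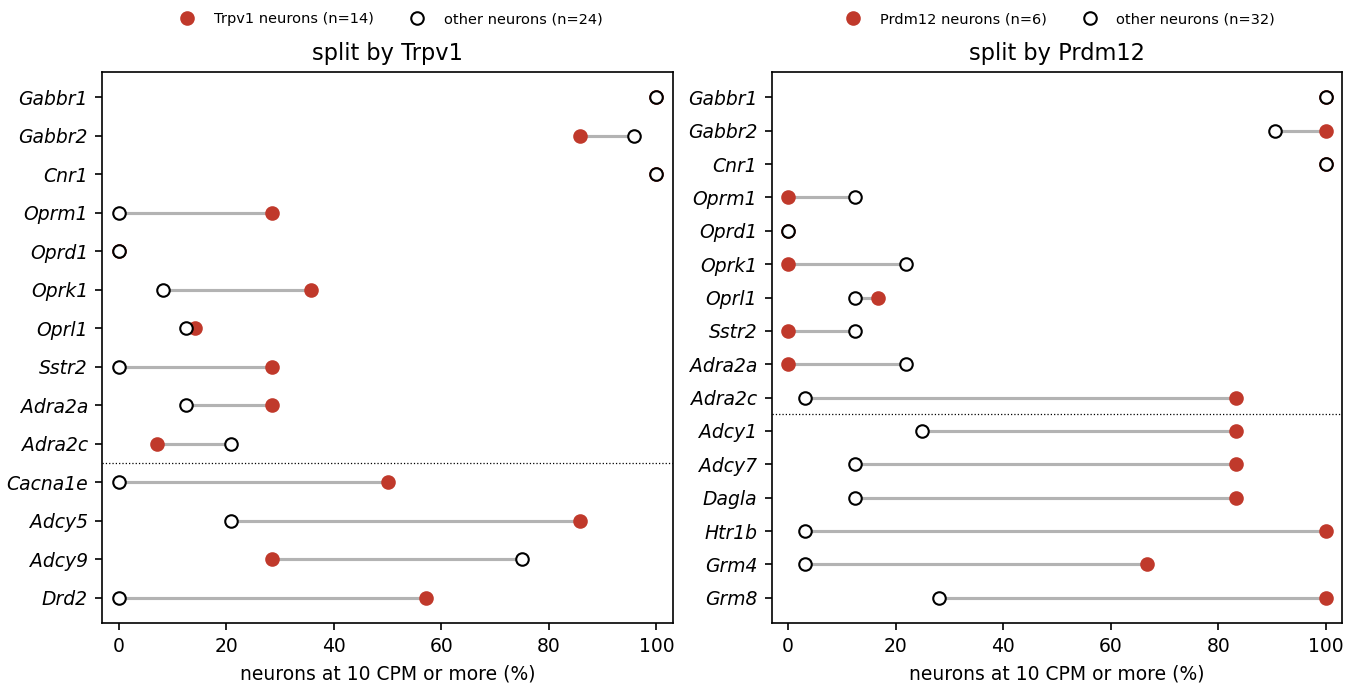
Percentage of gene-rich neurons at 10 CPM or more, with filled points for neurons with Trpv1 (left, 14 against 24) or Prdm12 (right, 6 against 32) and open points for the others. Receptors stand above the dotted line and, below it, the genes of the pathway lists that were 40 points or more apart; Adra2c alone of the receptors passed that size, for Prdm12.

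Genes whose level followed a common receptor most closely over the 38 gene-rich neurons were also ranked. For Gabbr1 the highest Spearman correlations were with Gprin3 (0.69), Sema5a (0.68) and Cables1 (0.68), for Gabbr2 with Amigo2 (0.68), Ube3c (0.67) and Ptcd2 (0.65), and for Cnr1 with Rap1gap2 (0.61), Acsl3 (0.61) and Dcdc2a (0.61). Of 11351 genes, 93, 112 and 49 reached 0.5, and 87, 28 and 6 were at -0.5 or less. Gprin3 and Cables1 were at 10 CPM in only 9 and 7 of the 38 neurons, against 33 for Sema5a, so most of their values lay below the threshold. With Trpv1 the correlations were 0.44 for Gabbr1, -0.15 for Gabbr2 and -0.004 for Cnr1. With Prdm12 they were 0.13, 0.40 and -0.11 in the same order. Against the rare receptors compared, Gabbr2 ran from -0.39 (Adra2a) to 0.39 (Oprl1). Trpv1, Prdm12, Adra2a and Oprl1 were at 10 CPM in only 14, 6, 7 and 5 of the 38 neurons. All are descriptions over neurons of 1 table that share depth and composition.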

How the data were processed

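Single DiI-traced vagal neurons of C57BL/6 mice were sequenced on a NextSeq 500 with 76-base reads, per the labels' protocols. The deposited table holds raw read counts per Ensembl gene, assigned by the authors with featureCounts per the submitters' processing notes. For its version, the aligner, the build, the annotation and the strand setting: not given in the sources used here. The labels name no unique molecular tags, and copies made by amplification may each have been counted. Total counts ran from 576966 to 20668832, and 12 of 84 neurons with under 5000000 were left out. No 2 kept neurons had identical counts (highest correlation 0.923).

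Counts were scaled to CPM on each neuron's total, and detection was set at 10 CPM. Identifiers were matched to GENCODE M21 (GRCm38), 50462 of 50686, and the 224 others held at most 0.215% of a neuron's counts. Shares have exact Clopper-Pearson 95% intervals, and the limit of a share of 0 is 3 counts over the total. Shares were compared by a size of 40 percentage points over the 11350 genes found in at least 5 kept neurons. No test was run, because each sample is 1 neuron and the labels name no animals. Neurons with 5000 or more genes were analysed again. Named genes are the members, Trpv1 and Prdm12, from each pathway list the 2 most frequent genes and up to 3 apart by 40 points (lists of 10 or fewer whole), and up to 3 genes per member with a Spearman correlation of 0.5 or more. Members and lists were chosen with earlier results of these data known. Neuron identifiers form 3 blocks, which the labels do not call batches. Alternatives were a threshold of 1 count or 50 CPM, other depth filters, thinning, TMM scaling (edgeR 4.0.16, R 4.3.3), size rules of 30 and 50 points, and leaving out each block. The steps were tested on simulated data. Python 3.11.15, numpy 2.4.6, pandas 2.3.3, scipy 1.17.1 and matplotlib 3.10.9 were used, with seed 1.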

Additional observations from a re-analysis of the deposited data

Results flagged for a closer look

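Gabbr1 also appeared in the 12 neurons with under 5000000 counts, which no comparison above used. It was detected in 6 of these 12 (50%, exact 95% interval 21.1 to 78.9%). Gabbr2 and Cnr1 were detected in 2 of 12 each, and the other 7 receptors in 0. The highest Gabbr1 level among the 12 was 2955 CPM and the median 10.3 CPM.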

How the results depend on the processing

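No alternative turned the direction of a member's difference of 40 points or more. Of 90 recomputed shares of the members 74 stayed within their interval, as did 189 of 200 differences by Trpv1 or Prdm12. At 1 count or more the median number of receptors per neuron was 5, both GABA-B subunits were found in 94.4% of neurons and an opioid receptor in 80.6%. That setting put 5.22% of all genes apart by Trpv1 and 0.130% by Prdm12, with 0 members by Prdm12. At 50 CPM both subunits were found in 36.1% and an opioid receptor in 6.94%, and 2.83% of genes were apart by Trpv1, with 1 member apart by Prdm12, Cnr1 by 49.3 points. In gene-rich neurons alone the median was 4 receptors and both subunits were found in 92.1%. The members apart by Prdm12 fell there from 2 to 1, Adra2c. The same held with 10000000 or more counts, with TMM scaling and with a size rule of 50 points. It also held in neurons at or above the median number of genes, a setting added after seeing the data. Without AM002 to AM023 and without AM210 to AM304 the 1 member left was Cnr1. Adra2c was then in fewer than the 5 neurons needed, with 4 of 5 Prdm12 neurons against 0 of 51 others and 2 of 2 against 1 of 25. The difference of Adra2c by Prdm12, 84.2 points, was 62.5 points with TMM. It fell below the 40-point size at 1 count (39.6 points) and at 50 CPM (30.4 points, with Adra2c in only 3 neurons).

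The share of all tested genes that were apart moved more. By Trpv1 it was 0.996%, against 1.58% with all 84 neurons, 0.652% with TMM, 2.70%, 5.83% and 2.16% without each block in turn, 1.83% in gene-rich neurons, 6.48% at 30 points, 0.115% at 50 points and 2.26% at or above the median number of genes. By Prdm12 it was 19.2%, against 29.6% with all 84 neurons, 11.9% with 10000000 counts, 7.30% with TMM, 38.8% without AM210 to AM304, 6.28% in gene-rich neurons, 37.05% at 30 points, 7.10% at 50 points and 6.71% at or above the median number of genes. The cause of these shifts was not tested. The number of neurons limits the 6 rare receptors that were found: with 4 to 9 detecting neurons each, the intervals are wide. No paired analysis was possible because the labels give 1 group.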

Other observations

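Neuron AM018, the deepest library at 20668832 counts, carried Gabbr1, Cnr1, Oprm1, Oprk1, Sstr2 and Adra2a, with Adra2c at 9.53 CPM, yet 0 counts of Gabbr2. Neuron AM275, with 3298 genes, had 545 CPM of Cnr1 and 4.40 CPM of Gabbr1. A high Cnr1 level thus occurred with Gabbr1, the commonest member, present but below the 10 CPM threshold.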
